A study of Mus musculus with 4 samples.

Results

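Dendritic cells were a small cluster of 138 among 17674 cells sequenced from CT26 colon tumors, chosen as the cells that the authors' annotation calls cDC. They were compared between tumors of Cyp51-KO CT26 cells (95 dendritic cells of 10484 cells) and tumors of sg-Ctrl CT26 cells (43 of 7190 cells), and with the other 4 myeloid clusters of the same tumors, 998 neutrophils, 576 cells named macrophages, 861 cells named monocytes and 574 mast cells. CT26 is a mouse colorectal cancer line. It had been transduced with a lentiviral CRISPR vector carrying TagBFP and either a Cyp51 guide or a control guide, sorted for TagBFP and injected orthotopically into male BALB/c mice aged 8 to 10 weeks, so that the edit of the Cyp51-KO group is in a sorted pool of tumor cells and the dendritic cells come from the unedited host. Cyp51 levels were not analysed here. The Cyp51 protein demethylates lanosterol on the way to cholesterol. Tumors were taken at day 26, 9 in the Cyp51-KO group and 12 in the sg-Ctrl group. The mix loaded for droplet 5′ single-cell RNA sequencing held 50% leukocytes sorted on CD45, 40% T cells sorted on CD3 and 10% BFP+ tumor cells.

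Dendritic cells belong to the leukocyte fraction. The labels list 2 samples per group, but a cell can be tied only to its group, so each group is 1 pooled sample. No test could be made, and the 95% intervals given here cover counting error only, not the differences between tumors or libraries. A total of 98 cell barcodes occurred in both groups, each once per group, and 1 of them belonged to a dendritic cell, in sg-Ctrl tumors.

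Dendritic cells fall into conventional cells, which take up antigen and present it to T cells, and plasmacytoid cells, which sense viral and self nucleic acids through endosomal Toll-like receptors and can release large amounts of type I interferon. Plasmacytoid cells have a rounded, plasma cell-like shape and in tumors have been described in both tolerant and activated states. The label cDC stands for the conventional kind. The genes that the study lists as leading this cluster over both groups go against that label. They include Siglech, a sialic acid-binding lectin of mouse plasmacytoid cells, Bst2, the membrane protein tetherin recognized by antibodies to plasmacytoid cells, Tcf4, the E protein that specifies and maintains this lineage, and Klk1, a tissue kallikrein. Xcr1, Clec9a, Itgax, Cd209a, Flt3, Zbtb46, Batf3 and Ccr7, genes of conventional dendritic cells or of their migratory state, do not occur in that list, which holds only the top 10 genes of each cluster, so their absence from it says little about their expression. Expression per cell was not analysed here, so the identity rests on that list and the cluster is called the dendritic cluster below. The values that could be analysed are the number of its cells, the unique molecular identifiers (UMIs, one per captured RNA molecule) and genes detected in each, and the percentage of UMIs from mitochondrial genes.

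The share of the dendritic cluster among myeloid cells had overlapping intervals in the groups. It was 4.88% of the 1946 myeloid cells of Cyp51-KO tumors (95% interval 3.97 to 5.94%) against 3.58% of the 1201 of sg-Ctrl tumors (2.60 to 4.79%). The log2 ratio of the shares, Cyp51-KO over sg-Ctrl, was 0.45, with a range of -0.27 to 1.19 when the lower bound of one share is set against the upper bound of the other. Without mast cells the shares were 6.16% and 4.17%, and among the macrophage, monocyte and dendritic clusters alone they were 9.60% and 7.35%, again with overlapping intervals. Counted over immune cells outside the T cell clusters, which leaves out the clusters that the CD3+ sort adds to, Cyp51-KO tumors had 2.77% of dendritic cells (2.25 to 3.37%) and sg-Ctrl tumors had 1.83% (1.33 to 2.46%). Over all immune cells, which hold the added T cells, the dendritic cluster was 1.20% (0.974 to 1.47%) against 0.673% (0.487 to 0.905%), and here the intervals lay apart.

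The difference depended on which myeloid cells the dendritic cluster was counted against. Neutrophils are short-lived granulocytes, and per 100 of them Cyp51-KO tumors held 17.2 dendritic cells (13.7 to 21.5), against 9.62 (6.86 to 13.2) for sg-Ctrl. Against the macrophage cluster Cyp51-KO tumors had 30.2 dendritic cells per 100 (23.7 to 38.1) and sg-Ctrl tumors 16.5 (11.6 to 22.8). These are log2 ratios of 0.84 and 0.87, with intervals that lay narrowly apart. Per 100 cells of the cluster named monocytes there were 16.4 dendritic cells (13.0 to 20.4) with Cyp51-KO and 15.3 (10.8 to 21.2) with sg-Ctrl, which overlap. Mast cells, the tissue-resident granular cells known from allergy, gave 23.5 (18.6 to 29.4) and 25.4 (17.8 to 35.7), a log2 ratio of -0.12. The ranges of these log2 ratios, -0.70 to 0.91 against monocytes and -0.95 to 0.73 against mast cells, hold differences in either direction. Neutrophils were 551 of the 1946 myeloid cells with Cyp51-KO and 447 of the 1201 with sg-Ctrl, and macrophage-cluster cells 315 and 261. Monocyte-cluster cells were 580 and 281, and mast cells 405 and 169. A ratio to a single cluster does not tell a change in dendritic cells from a change in that cluster. Set against NK, B and plasma cells together, lymphocytes that the CD3+ sort does not take, dendritic cells numbered 6.40 per 100 (5.14 to 7.88) in Cyp51-KO against 3.76 (2.70 to 5.09) in sg-Ctrl tumors, also narrowly apart.

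**Figure D1:**
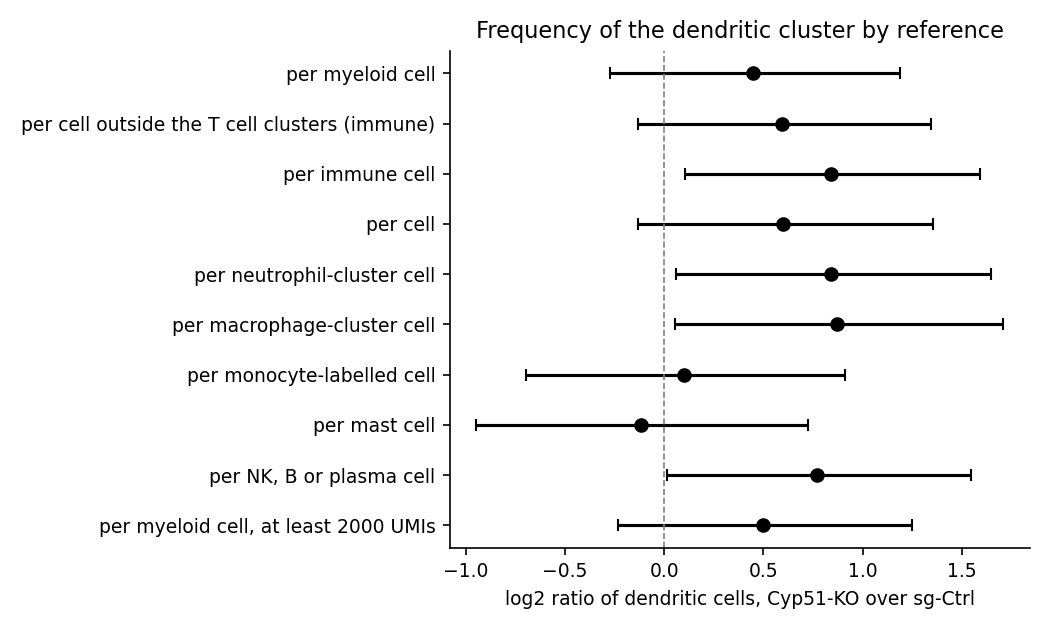
The log2 ratio of the frequency of the dendritic cluster, Cyp51-KO over sg-Ctrl (horizontal axis), for each reference population or filter (rows); bars join the lower 95% bound of one group with the upper bound of the other. The ratio is 0.84 per neutrophil and 0.87 per macrophage-cluster cell, 0.098 per monocyte-labelled cell and -0.12 per mast cell, and it is 0.50 per myeloid cell among cells of at least 2000 UMIs.

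Fewer RNA molecules were captured per dendritic cell of Cyp51-KO tumors. The 95 cells of this group ran from 811 to 50907 UMIs around a median of 5490 (95% interval 5187 to 6701). The 43 cells of sg-Ctrl tumors ran from 4135 to 46991 UMIs around a median of 9460 (7406 to 11635). The single cells of the groups overlapped, and the intervals of the medians did not. The log2 ratio of the medians was -0.79, with a range of -1.17 to -0.14. Of the 5 myeloid clusters this was the lowest ratio, followed by the macrophage (-0.51), monocyte (-0.49) and mast cell (-0.26) clusters and by neutrophils at 0.050, although its range overlapped with theirs. Over all 20 clusters it was only the 8th lowest, and 18 of them had a ratio below 0. Whether the lower UMIs come from less RNA per dendritic cell or from shallower sequencing of that group cannot be told apart with 1 pool per group.

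The gap between the groups was widest among the dendritic cells with the fewest UMIs. At the 10th percentile Cyp51-KO dendritic cells had 2689 and sg-Ctrl dendritic cells 6449 UMIs, with a log2 ratio of -1.26. It was -0.85 at the 25th percentile and -0.41 at the 75th. At the 90th percentile the values were 18357 and 21463, a log2 ratio of -0.23. Cells named monocytes showed the same order, with -0.88 at the 10th and -0.27 at the 90th percentile, whereas the macrophage cluster ran from 0.54 to -0.43. In Cyp51-KO tumors 25 of the 95 dendritic cells (26.3%, 17.8 to 36.4%) lay below the lowest dendritic cell of sg-Ctrl tumors. Under 2000 UMIs there were 7 of the 95 (7.37%, 3.01 to 14.6%) with Cyp51-KO and 0 of the 43 with sg-Ctrl, which allows a share of up to 6.98%, so that a difference this far down was not detectable. Of the Cyp51-KO dendritic cells 56.8% (46.3 to 67.0%) fell below the 10th percentile of the sg-Ctrl dendritic cells. The corresponding shares were 28.3% for neutrophils, 26.4% for mast cells, 24.0% for the monocyte cluster and 3.17% for the macrophage cluster. The intervals of the 56.8% and of the 26.3% treat their sg-Ctrl cutoffs as fixed. Those cutoffs rest on the lowest few of 43 dendritic cells, so both shares are less certain than their intervals show.

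**Figure D2:**
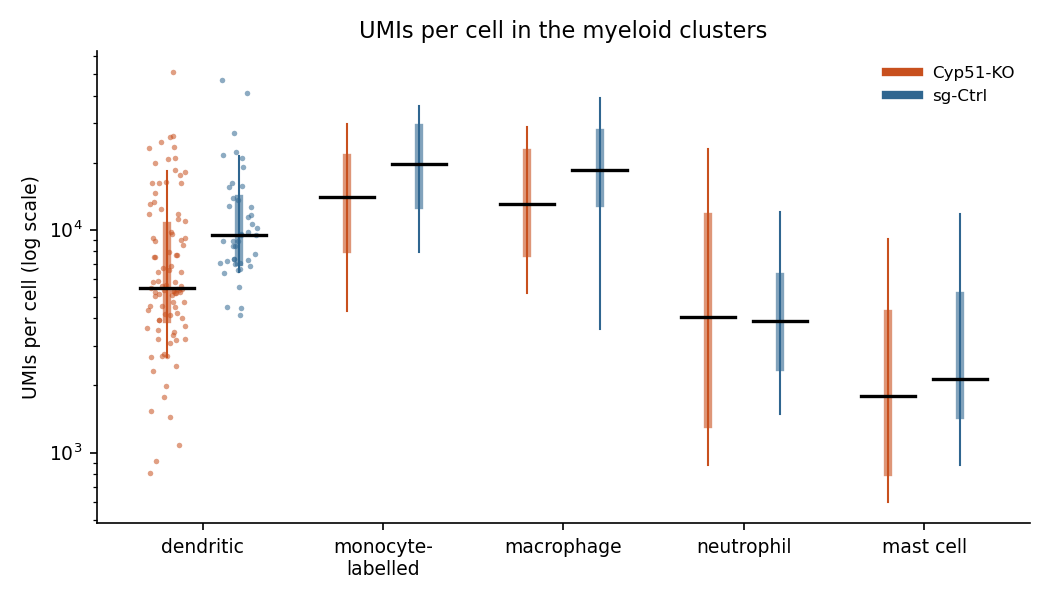
UMIs per cell (log scale) in the 5 myeloid clusters of Cyp51-KO and sg-Ctrl tumors. Black lines are medians, thick bars run from the 25th to the 75th and thin bars from the 10th to the 90th percentile, and each dot is 1 dendritic cell; dendritic cells reach down to 811 UMIs in Cyp51-KO tumors and stop at 4135 in sg-Ctrl tumors.

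The share of the dendritic cluster also differed along the range of UMIs. When myeloid cells were sorted by their UMIs, dendritic cells concentrated between 5000 and 10000 UMIs, at 9.37% of Cyp51-KO (6.68 to 12.7%) and 12.1% of sg-Ctrl myeloid cells (7.73 to 17.7%). Between 2000 and 5000 UMIs the groups lay far apart, at 8.79% (27 of 307 cells, 5.88 to 12.5%) and 0.987% (3 of 304 cells, 0.204 to 2.86%). Neutrophils were 87 of the myeloid cells of this bin with Cyp51-KO and 221 of them with sg-Ctrl. Without neutrophils the shares of the bin were 12.3% (27 of 220 cells, 8.25 to 17.4%) and 3.61% (3 of 83 cells, 0.752 to 10.2%), and the intervals overlapped. Between 5000 and 10000 UMIs they were then 12.3% (8.83 to 16.6%) against 24.7% (16.2 to 35.0%), lower with Cyp51-KO and with intervals that met only at their ends. With neutrophils counted, the shares were 3.52% and 4.48% from 10000 to 20000 UMIs, and 2.34% and 2.14% above 20000 UMIs, with overlapping intervals in both bins. Below 2000 UMIs dendritic cells were 1.57% of 447 Cyp51-KO and 0 of 166 sg-Ctrl myeloid cells, which allows up to 1.81%. A minimum of 2000 UMIs gave shares of 5.87% and 4.15%. A minimum of 4000 UMIs, placed after the data were seen just under the lowest sg-Ctrl dendritic cell, removed 24 of the 95 Cyp51-KO and 0 of the 43 sg-Ctrl dendritic cells. The shares of 5.52% (71 of 1287) and 5.27% (43 of 816) that it left are a description, since this placing by itself lowers the ratio of Cyp51-KO over sg-Ctrl. The part of depth in the share was not tested.

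**Figure D3:**
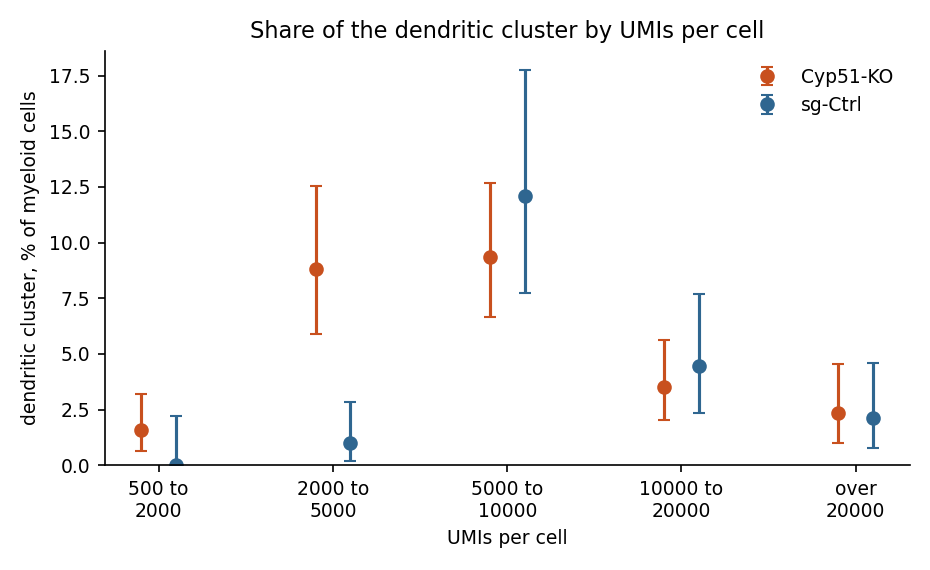
The dendritic cluster as a percentage of myeloid cells in 5 bins of UMIs per cell (Cyp51-KO left, sg-Ctrl right); bars are 95% intervals. Among these bins the intervals lie apart only between 2000 and 5000 UMIs, at 8.79% with Cyp51-KO and 0.987% with sg-Ctrl.

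The number of genes detected followed the UMIs. The median dendritic cell had 2100 genes in Cyp51-KO tumors (1881 to 2469), with a lowest cell at 512 and a highest at 6658, against 2948 genes in sg-Ctrl tumors (2556 to 3127), with 1732 and 6592 at the ends. The log2 ratio was -0.49 (-0.73 to -0.050). Across the cells of the cluster genes rose closely with UMIs, with a Pearson correlation of the log10 values of 0.989 over the 95 Cyp51-KO and 0.980 over the 43 sg-Ctrl cells, given as a description of cells that share a pool. At 5000 to 10000 UMIs the medians were 2193 genes (2030 to 2472) and 2548 genes (2422 to 2922), and at 10000 to 20000 UMIs 3585 and 3698, with overlapping intervals in both bins. The bins do not match the groups exactly in UMIs, and the part of the remaining difference in UMIs was not tested. The authors' SCTransform values, which rescale each cell towards a common depth, gave a log2 ratio of -0.39, with a median of 2100 genes with a corrected UMI (1886 to 2368) per Cyp51-KO and 2753 (2556 to 2981) per sg-Ctrl dendritic cell. These corrected values still rose with raw UMIs across dendritic cells, with Spearman correlations of 0.92 (Cyp51-KO, 95 cells) and 0.73 (sg-Ctrl, 43 cells).

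Within bins of UMIs, dendritic cells had more genes detected than the pool of other myeloid cells. Each dendritic cell was set against the median genes of the other myeloid cells in its own bin of UMIs and group. The log2 ratio of its genes over that median had a median of 0.17 (0.091 to 0.26) in Cyp51-KO tumors, where 71 of 95 cells were above 0. In sg-Ctrl tumors it was 0.46 (0.22 to 0.56), with 37 of 43 cells above 0. With 10 bins of equal cell number in place of the fixed bins, the Cyp51-KO value was 0.18 and the sg-Ctrl value 0.23. UMIs still varied within a bin, and their part in these ratios was not tested. Of the 4 clusters neutrophils gave the largest ratio, 0.34 with Cyp51-KO and 0.88 with sg-Ctrl. At 5000 to 10000 UMIs neutrophils of Cyp51-KO tumors had a median of 1858 genes and those of sg-Ctrl tumors 1289. Against the cluster named monocytes it was 0.087 (0.023 to 0.14) with Cyp51-KO and 0.074 (-0.00080 to 0.16) with sg-Ctrl, the smallest of the 4. Against the macrophage cluster it was 0.091 and 0.21, and against mast cells 0.19 and 0.24. In total UMIs the dendritic cluster stood between the other clusters. Its median was below those of the macrophage (12980 in Cyp51-KO, 18453 in sg-Ctrl tumors) and monocyte clusters (13992 and 19716). It was above those of neutrophils (4040 and 3903) and mast cells (1785 and 2136), with separate intervals in all of these comparisons in both groups.

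**Figure D4:**
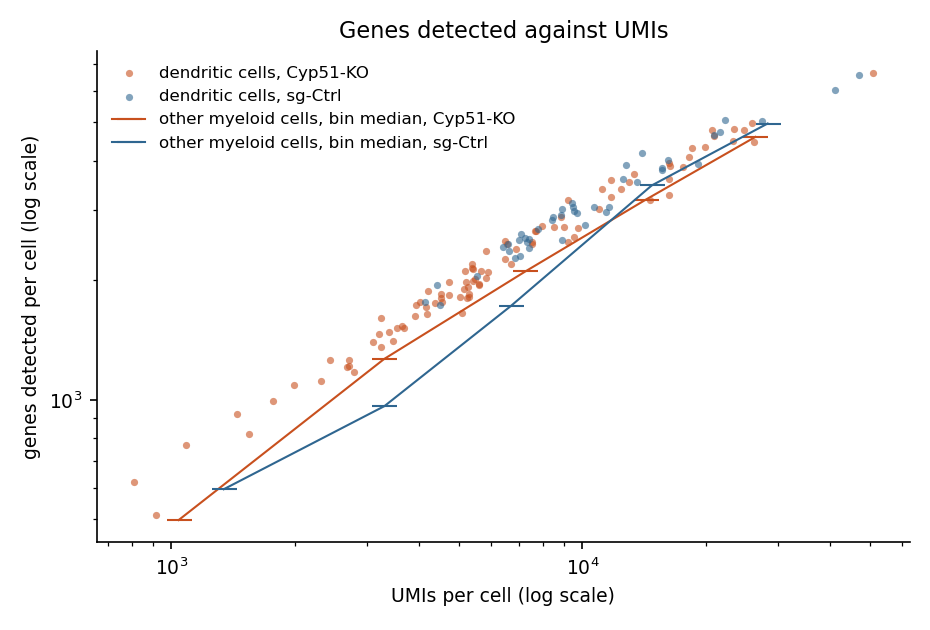
Genes detected against UMIs per cell (both log scales); dots are the 95 dendritic cells of Cyp51-KO and the 43 of sg-Ctrl tumors, lines join the median genes of the other myeloid cells of each group in 5 UMI bins, drawn at their median UMIs. In their own bin, 71 of 95 Cyp51-KO and 37 of 43 sg-Ctrl dendritic cells were above the median genes of the other myeloid cells. These counts use the bin medians and not the drawn lines.

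A few dendritic cells stood out by their number of UMIs. One cell of Cyp51-KO tumors had 50907 UMIs and 6658 genes, while the next had 26211 UMIs. The highest 2 cells of sg-Ctrl tumors had 46991 and 41228 UMIs. Above 20000 UMIs were 8 of the 95 Cyp51-KO (8.42%, 3.71 to 15.9%) and 6 of the 43 sg-Ctrl dendritic cells (14.0%, 5.30 to 27.9%). The sources used here do not say how doublets, droplets with more than 1 cell, were handled, and no caller was run; without myeloid cells of over 20000 UMIs the log2 ratio of the share was 0.43.

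The dendritic cluster had a higher mitochondrial percentage than most clusters. Its median was 1.25% of UMIs with Cyp51-KO (1.12 to 1.35%) and 1.69% with sg-Ctrl (1.56 to 1.91%), in each group the 2nd highest of the 20 clusters. Only B cells were higher in Cyp51-KO tumors, at 1.45%, and only mast cells in sg-Ctrl tumors, at 1.77%. The next clusters below were at 1.23% with Cyp51-KO and 1.68% with sg-Ctrl. Both values lay inside the dendritic intervals, so this rank had little margin. The lowest and highest dendritic cells were at 0.328% and 4.01% with Cyp51-KO, against 0.879% and 4.09% with sg-Ctrl. Compared with the macrophage cluster the median was higher by 0.421 percentage points (0.244 to 0.565) within Cyp51-KO and 0.701 points (0.502 to 0.976) within sg-Ctrl tumors. Compared with the monocyte cluster it was higher by 0.223 points (0.0583 to 0.355) and 0.196 points (0.0186 to 0.487). Neutrophils were the lowest of the 5 myeloid clusters, at 0.443% and 0.167%.

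Between the groups, the median mitochondrial percentage of dendritic cells was lower with Cyp51-KO, by a difference of -0.441 points (range -0.797 to -0.210). The median number of mitochondrial UMIs per dendritic cell was 70 with Cyp51-KO and 181 with sg-Ctrl, a log2 ratio of -1.37, while that of all other UMIs was 5426 and 9283, a log2 ratio of -0.77. The difference in percentage was also present within the bins between 5000 and 20000 UMIs. From 5000 to 10000 UMIs the medians were 1.25% (1.09 to 1.35%) in Cyp51-KO and 1.65% (1.55 to 2.06%) in sg-Ctrl dendritic cells. From 10000 to 20000 UMIs they were 1.09% (0.847 to 1.47%) and 1.67% (1.48 to 2.53%), with separate intervals in both bins. In the bin from 10000 UMIs they lay only narrowly apart. Above 20000 UMIs the medians were 1.14% (0.739 to 1.45%) and 1.64% (0.879 to 1.83%), with overlapping intervals. Below 5000 UMIs sg-Ctrl tumors had too few dendritic cells for an interval. Within a group the percentage fell only weakly with UMIs, with Spearman correlations of -0.19 over the 95 Cyp51-KO cells and -0.20 over the 43 sg-Ctrl cells. Between the groups, most other myeloid clusters moved in the same direction as the dendritic cluster, with differences of -0.468 points in the monocyte cluster, -0.803 points in mast cells and -0.162 points in the macrophage cluster, whereas neutrophils were higher with Cyp51-KO by 0.276 points. Above 2.5% there were 2 of the 95 Cyp51-KO dendritic cells (2.11%, 0.256 to 7.40%) and 6 of the 43 sg-Ctrl ones (14.0%, 5.30 to 27.9%), with overlapping intervals.

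**Figure D5:**
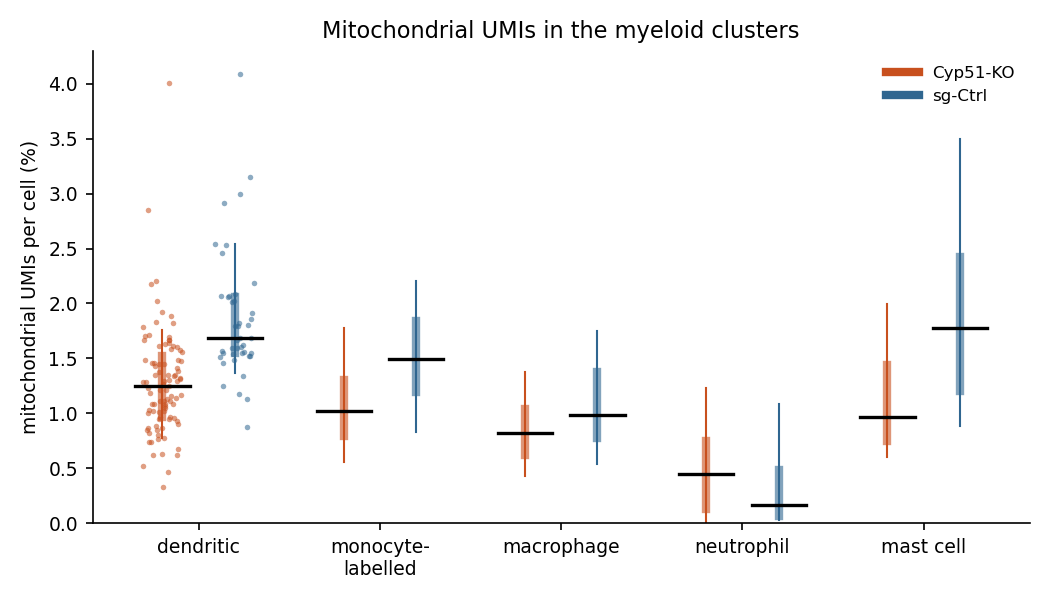
Mitochondrial UMIs as a percentage of the UMIs of a cell in the 5 myeloid clusters of Cyp51-KO and sg-Ctrl tumors, with medians (black lines), 25th to 75th (thick) and 10th to 90th percentiles (thin), and 1 dot per dendritic cell. The dendritic median is 1.25% with Cyp51-KO and 1.69% with sg-Ctrl.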

How the data were processed

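The submitters' processing notes name Cell Ranger 7.0, GRCm38, R 4.2.0 and Seurat 4.2.0. The authors dropped cells by genes, UMIs and mitochondrial percentage and also several tiny control-group clusters, merged the samples, ran SCTransform with the mitochondrial percentage regressed out, and named the clusters. The deposited table has 1 line per cell. It gives raw UMI counts and genes per cell computed by the authors, the mitochondrial percent computed by the authors, and SCTransform totals, a normalized score from the authors. UMIs ran from 500 to 99951 per cell, summing to 156168274 for Cyp51-KO and 95249095 for sg-Ctrl. The group of a cell is its name in the table, CYP51KO or WT, and the prefix of the cell names is the start shared by both sample titles of that group, so it does not tell those samples apart.

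Shares have exact (Clopper-Pearson) and medians exact order-statistic 95% intervals, both tested on simulated data. The limit for a count of 0 is 3 cells, a bound on 1 side that is narrower than the exact interval. That interval reaches 8.22% for 0 of 43 dendritic cells and 2.20% for 0 of 166 myeloid cells under 2000 UMIs in sg-Ctrl tumors. Log2 ratios and differences are Cyp51-KO over or minus sg-Ctrl, or dendritic over other cells, with ranges from the opposite bounds. UMI bins were cut at 2000, 5000, 10000 and 20000. The rule for names gives values to the dendritic and the 4 other myeloid clusters and to no gene. The cells, marker lists and alternatives were chosen with earlier results of these data known. Alternatives were other denominators, filters on cells, means in place of medians, other reference cells and other bins. Python 3.11.15, pandas 2.3.3, NumPy 2.4.6, SciPy 1.17.1 and Matplotlib 3.10.9 were used.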

Additional observations from a re-analysis of the deposited data

How the results depend on the processing

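Of 36 alternatives, 31 gave a value inside the counting range of the main result. These ranges are wide, from -0.27 to 1.19 for the share among myeloid cells, so this count says little about stability. The share of dendritic cells had a log2 ratio above 0 under all 12 of its alternatives, several of which left the myeloid cells as denominator. It lay between 0.066 (minimum of 4000 UMIs, which removes dendritic cells of Cyp51-KO tumors alone) and 0.84 (over all immune cells). Intervals were separate in 3 of them, over all immune cells, over NK, B, plasma and dendritic cells, and over the neutrophil and dendritic clusters. Counts against monocytes (0.098) or mast cells (-0.12) alone were not among the 12, so the common direction depends on the denominators taken. The log2 ratio of UMIs per dendritic cell ran from -0.75 to -0.33 and that of genes from -0.54 to -0.24, both smallest with that minimum, where the intervals overlapped. The difference in mitochondrial percentage ran from -0.580 to -0.355 points. Set against all other myeloid cells pooled, dendritic cells had a log2 ratio of median UMIs of -0.50 (-0.71 to -0.064) within Cyp51-KO and 0.29 (-0.35 to 0.80) within sg-Ctrl tumors, and 4 alternatives turned a direction. Within Cyp51-KO tumors it was 0.043 with means in place of medians, -0.75 with the stricter filter (1000 UMIs or more, 2.5% mitochondrial UMIs or less), -0.93 without mast cells and -0.79 without neutrophils. Within sg-Ctrl tumors it was -0.022 with the stricter filter, -0.20 without mast cells and -0.74 without neutrophils. The minimum of 4000 UMIs, the maximum of 20000, the counts against NK, B and plasma cells or against neutrophils, and the bins without neutrophils were picked with the data in view. No paired analysis was possible because the table names the group of a cell but no sample. Shares per library and fits without 1 library were not run for that reason. The 43 dendritic cells of sg-Ctrl tumors limit the precision.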
